A study of Mus musculus with 12 samples.

Results

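The 10 circadian clock genes described here are Arntl, Clock and Npas2, which encode the activators of the clock, Per1, Per2, Per3, Nr1d1, Nr1d2 and Ciart, which encode repressors, and Dbp, an output gene. They were found by symbol among the gene names of the deposited expression tables, and each matched 1 locus of the 44450 listed. The samples were hearts of 11-week-old C57BL/6N mice, profiled by total RNA sequencing. The knockout group (3 libraries) had loxP sites in both copies of Mrpp3 (the gene of a mitochondrial RNase P subunit) and carried the Ckmm Cre transgene, in which the muscle creatine kinase promoter drives the recombinase in heart and skeletal muscle. The control group (3 libraries) carried the same loxP alleles without Cre, so an effect of Cre and an effect of losing the gene cannot be told apart. Cells of the heart in which that promoter is silent keep the gene. The mice were kept under a light and dark schedule, and the hour at which each heart was taken is not given in the sources used here, so hour of collection and genotype cannot be told apart in any value below.

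The clock is a feedback loop that runs in nearly every cell. ARNTL (also called BMAL1) pairs with CLOCK or its close relative NPAS2 and binds E-box sequences in the promoters of the Per, Cry, Nr1d, Ciart and Dbp genes. PER, CRY and CIART proteins then block the activators, while NR1D1 and NR1D2 (REV-ERB alpha and beta) bind RORE sequences and repress Arntl, Clock and Npas2. DBP and its relatives carry the rhythm onward through D-box sequences, which also lie in the Per genes. In mouse heart, as in other organs, Arntl and Npas2 RNA peak in antiphase to Dbp and the Per genes, so levels of these genes in a single library depend on the time of day.

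Matches to these sequences were looked up in the RefSeq promoter windows of build GRCm38.p6, which run from 250 bases before to 50 bases after an annotated start. Of the 10 genes 9 had a window, 13 windows in all, and 5 genes held a match to at least 1 motif. The Ciart window held 3 copies of the E-box CACGTG, a motif that reads the same on both strands, and 0.0883% of the 32851 windows of all genes held 3 or more copies. The 1st Per1 window held a single E-box, found in 7.15% of all windows. The Per3 window held 2 copies of the D-box TTATGTAA. A D-box, searched as TTATGTAA or TTACGTAA on both strands, was found in 1.06% of all windows, and 2 or more copies in 0.0244%. In Arntl, a match to the RORE pattern (AA, any base, T, any base, then GGTCA) began at base 28 of the transcript of its 2nd annotated start, where 0.606% of all windows held this pattern on either strand. Nr1d1 held the E-box variant CACGTT, on the opposite strand and first base 28 bases before the start, against 4.68% of all windows. None of these 4 patterns was found in the windows of Clock, Npas2, Nr1d2 and Dbp. The stretches of Ciart (chr3:95882229-95882478, minus strand), Per3 (chr4:151044666-151044915, minus strand) and Per1 (chr11:69098699-69098948, plus strand) that end just before the start, and 30 bases around the Arntl match (chr7:113207528-113207557, plus strand), are printed because they carry these matches. Capitals mark the motif matches.
Ciart: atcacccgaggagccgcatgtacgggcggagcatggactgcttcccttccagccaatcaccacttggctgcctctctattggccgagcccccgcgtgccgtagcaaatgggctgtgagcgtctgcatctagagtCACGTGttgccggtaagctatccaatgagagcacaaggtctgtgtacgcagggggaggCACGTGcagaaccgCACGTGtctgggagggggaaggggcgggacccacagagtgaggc
Per3: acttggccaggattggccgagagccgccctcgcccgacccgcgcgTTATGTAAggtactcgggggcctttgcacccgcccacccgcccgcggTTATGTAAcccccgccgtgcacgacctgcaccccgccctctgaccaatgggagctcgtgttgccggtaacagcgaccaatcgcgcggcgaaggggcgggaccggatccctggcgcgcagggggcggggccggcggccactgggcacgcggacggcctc
Per1: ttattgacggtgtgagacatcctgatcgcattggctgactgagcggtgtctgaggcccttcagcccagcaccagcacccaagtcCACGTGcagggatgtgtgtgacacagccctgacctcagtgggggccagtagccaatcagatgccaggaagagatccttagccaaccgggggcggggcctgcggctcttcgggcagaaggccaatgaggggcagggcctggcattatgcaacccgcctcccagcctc
Arntl: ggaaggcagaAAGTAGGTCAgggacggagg

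**Figure D1:**
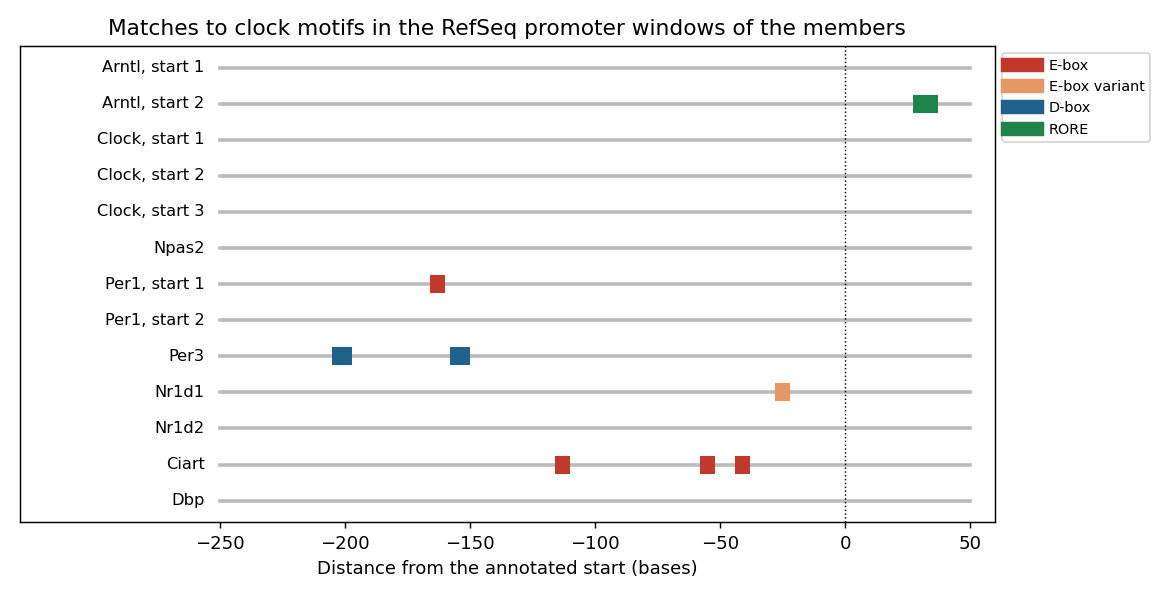
Motif matches in the RefSeq promoter windows of 9 clock genes, by distance in bases from the annotated start (dotted line, gene direction left to right), with genes that have several annotated starts on several lines. Ciart holds 3 E-boxes and Per3 holds 2 D-boxes upstream of the start, and the RORE match of Arntl lies after its 2nd start.

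All 10 genes passed the filter of at least 1 FPKM (fragments per kilobase of transcript, scaled to the mapped fragments of the library) in at least 3 libraries, Npas2 through the controls alone. Knockout was set against control with limma on log2(FPKM + 0.5) over 12181 loci, with p-values adjusted over all of them, and log2 fold changes below are knockout over control on that scale, which understates changes of low genes. Of the 10 genes 3 rose (Ciart, Dbp and Per2), 2 fell (Arntl and Npas2) and 5 did not pass an adjusted p of 0.05. Among all loci tested 35.7% passed, 16.1% higher and 19.5% lower, so a count of 5 of 10 says little of these genes as a set. The same 5 genes had groups that did not overlap, 3 with the knockouts higher and 2 with them lower, where 52.3% of all loci tested did not overlap, 23.6% higher and 28.7% lower. For Npas2 this was fixed by the filter, as for every locus that passes it through 1 group alone. The median log2 fold change was 0.19 for the clock genes and -0.02 for all loci tested. Without knockout replicate 1, 2 rose (Ciart and Per2) and 1 fell (Arntl), against a background of 28.9%. Without control replicate 1 or control replicate 2, 1 rose (Ciart) and 1 fell (Arntl), where the background called was 23.0% and 21.5% (9.95% higher without control replicate 2). Without control replicate 3, Ciart and Per2 rose and Arntl and Npas2 fell, where it was 22.9%.

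Values rest on 6 libraries whose read totals are not given in the files. Judged by the size of a single fragment's step in FPKM, knockout replicates 1 to 3 were 2.57, 2.06 and 2.19 times as deep as control replicate 1, the shallowest, and the other controls 1.32 and 1.35 times. Low values are therefore less certain in the controls. The targeted gene, now called Prorp and listed as 1110008L16Rik, had 0.441, 0.701 and 0.555 FPKM in knockouts, against 3.49, 2.64 and 3.23 FPKM in controls (log2 fold change -1.77, SE 0.17, limma adjusted p = 0.000628). Ventricular muscle markers were abundant in every library, and their 7 genes, of which 5 fell, summed to 12740, 6268 and 13860 FPKM in knockouts and to 27820 to 31580 FPKM in controls. Knockout replicate 2 stood apart in atrial markers (6 genes, summed 14330 FPKM, against 2072 and 2337 in the other knockouts and 42.9 to 121.6 in controls) and in red blood cell markers (5 genes, 21890 FPKM, against 622 and 2010 in the other knockouts and 1572 to 2902 in controls). In knockout replicates 1 and 3 the atrial sum was mostly Nppa (1948 and 2327 FPKM). Knockout replicate 1 also held Myl7 (43.5 FPKM), Myl4 (66.1) and Sln (8.52), against at most 1.90, 4.09 and 0.767 FPKM in controls. In knockout replicate 3 Myl7 (0.0961 FPKM), Sln (0) and Myl4 (3.35) were at control levels. In knockout replicate 2 Myl7 (911 FPKM), Myl4 (2290) and Sln (118) were far above both other knockouts. Bmp10 and Dkk3 were above the controls in every knockout. Bmp10 had 0.785, 386 and 4.19 FPKM in knockout replicates 1 to 3, against at most 0.0577 FPKM in controls. Dkk3 had 5.77, 100 and 3.01 FPKM in knockouts, against at most 0.617 FPKM in controls. In bulk tissue, fewer cells of a type and less RNA per cell cannot be told apart.

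Arntl, the activator without which the clock stops, was far lower in the knockout. It lies on chromosome 7 (113178471 to 113314126, GRCm38.p6). Arntl had 0.570, 0.777 and 3.96 FPKM in knockout replicates 1 to 3, against 11.2, 10.5 and 9.57 FPKM in control replicates 1 to 3. Every knockout library lay below every control, and knockout replicate 3 lay between the other knockouts and the controls. Arntl had a log2 fold change of -2.58 (SE 0.49, 95% interval -3.72 to -1.44, limma adjusted p = 0.0067), a fall of 5.98-fold in FPKM + 0.5, and the call held with each library left out in turn (adjusted p 0.00021 to 0.028).

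Npas2, the partner of ARNTL that can stand in for CLOCK, followed the same order at a lower level. It lies on chromosome 1 (39193702 to 39363240). Npas2 had 0.238, 0.594 and 0.874 FPKM in knockout replicates 1 to 3 and 2.42, 1.54 and 1.29 FPKM in control replicates 1 to 3. The groups did not overlap, an outcome fixed by the filter, since only the controls reached 1 FPKM. Knockout replicate 3 was again the highest of the knockouts. The log2 fold change was -1.09 (SE 0.29, limma adjusted p = 0.024). This call was lost without knockout replicate 1 (adjusted p = 0.061), control replicate 1 (0.081) or control replicate 2 (0.061), and all 3 knockout values lay below the 1 FPKM filter. Npas2 overlaps the predicted gene Gm3617 by 623 bases, which was listed at 0, 0 and 0.314 FPKM in knockouts and at 1.15, 1.92 and 1.19 FPKM in controls.

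Clock, on chromosome 5 (76209868 to 76305603), encodes the partner of ARNTL that changes least over the day in most tissues. It had 14.8, 14.4 and 20.4 FPKM in knockout replicates 1 to 3, against 19.7, 18.6 and 20.2 FPKM in controls. Knockout replicates 1 and 2 lay below all controls, and knockout replicate 3 lay above them. The log2 fold change of -0.25 (95% interval -0.60 to 0.11) did not pass (limma adjusted p = 0.245), and it was -0.40 without knockout replicate 3 (adjusted p = 0.030).

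Of the 6 repressor genes 2 rose and 4 did not pass. Ciart, which encodes the CHRONO protein, a repressor that binds the activators at E-boxes, gave the smallest adjusted p of the 10 genes. It lies on chromosome 3 (95878500 to 95882257). Ciart had 10.9, 9.60 and 10.4 FPKM in knockout replicates 1 to 3, against 2.55, 1.75 and 2.52 FPKM in controls. All 3 knockouts were high and close together, replicate 3 included. The log2 fold change was 1.97 (SE 0.15, limma adjusted p = 0.00034), a rise of 3.92-fold in FPKM + 0.5, and the call held with each library left out in turn (adjusted p 0.00060 to 0.0024). The annotation places the whole of Ciart inside another gene, C920021L13Rik, and the use of strand in counting is not given in the sources used here, so their fragments may not be fully separated. C920021L13Rik was listed at 1.25, 0.683 and 2.08 FPKM in knockouts and at 0.936, 0.654 and 0.439 FPKM in controls, well below Ciart in each library.

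Per2, a core repressor on chromosome 1 (91415977 to 91459351), had 3.59, 5.04 and 2.49 FPKM in knockout replicates 1 to 3, against 1.34, 1.35 and 1.91 FPKM in controls. The groups did not overlap, and knockout replicate 3 was nearest to the controls. Per2 rose by a log2 fold of 1.01 (SE 0.24, limma adjusted p = 0.0165), a call lost without control replicate 1 (adjusted p = 0.057) or control replicate 2 (0.058).

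Per3, on chromosome 4 (150997018 to 151044707), encodes the PER protein least needed for daily rhythms in mice. It split the knockout libraries, with 8.27, 10.6 and 2.44 FPKM in knockout replicates 1 to 3, against 1.88, 2.11 and 3.01 FPKM in controls. Knockout replicates 1 and 2 lay above every control, while knockout replicate 3 lay inside the control range. The log2 fold change of 1.24 did not pass (SE 0.46, limma adjusted p = 0.073), and it was 1.82 without knockout replicate 3 (adjusted p = 0.0023).

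Per1, on chromosome 11 (69095108 to 69109965), is the period gene that glucocorticoids and other outside signals also induce. It had 7.17, 7.81 and 10.1 FPKM in knockout replicates 1 to 3, against 6.63, 7.94 and 5.61 FPKM in controls. The groups overlapped, and here knockout replicate 3 was the highest library. For Per1 the log2 fold change was 0.29 (95% interval -0.11 to 0.70, limma adjusted p = 0.224). With every library scaled to the same summed FPKM, which brought the median log2 fold change of all loci to 0.19, it was 0.51 (adjusted p = 0.046).

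**Figure D2:**
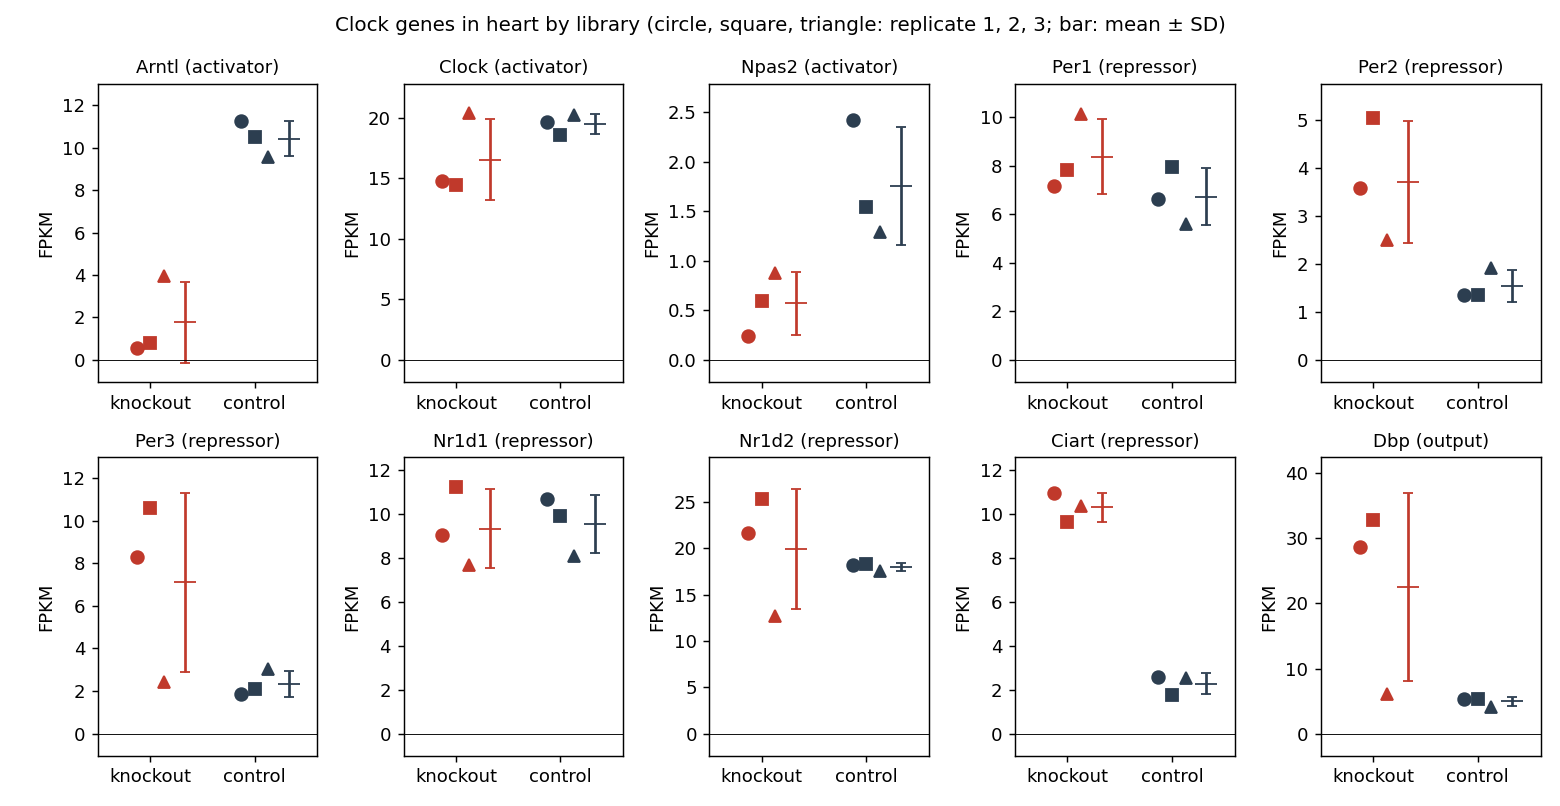
FPKM of the 10 clock genes in each library, knockout left of control, with symbols for replicates 1 to 3 and bars for the mean ± SD of 3 libraries. Ciart is high in all knockouts, whereas Dbp and Per3 are high in knockout replicates 1 and 2 and near the controls in replicate 3.

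The REV-ERB genes, which repress Arntl and Npas2, did not pass the test. Nr1d1, on chromosome 11 (98767932 to 98775377), had 9.04, 11.2 and 7.66 FPKM in knockout replicates 1 to 3 and 10.7, 9.88 and 8.08 FPKM in controls. The ranges overlapped almost fully, and the log2 fold change was -0.04 (95% interval -0.44 to 0.36, limma adjusted p = 0.87), with a sign that changed with the library left out and with scaling to the same summed FPKM. It overlaps Thra by 1075 bases, and Thra was listed at 23.7 to 30.9 FPKM in knockouts and 35.4 to 37.9 FPKM in controls, so fragments of Thra may add to Nr1d1 if strand was not used.

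Nr1d2, on chromosome 14 (18204056 to 18239106), had 21.7, 25.3 and 12.7 FPKM in knockout replicates 1 to 3 and 18.2, 18.3 and 17.5 FPKM in controls. Knockout replicates 1 and 2 lay above every control and knockout replicate 3 below every control, while the controls hardly varied. The log2 fold change was 0.09 (95% interval -0.47 to 0.64, limma adjusted p = 0.80). Its sign also changed with the library left out.

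Dbp, a transcription factor that drives many rhythmic genes, showed the widest gap between knockout libraries. It lies on chromosome 7 (45705100 to 45710203). Dbp had 28.7, 32.8 and 6.02 FPKM in knockout replicates 1 to 3, against 5.38, 5.32 and 4.15 FPKM in controls. The groups did not overlap, but knockout replicate 3 lay just above the highest control. Dbp changed by a log2 fold of 1.77 (SE 0.57, 95% interval 0.45 to 3.10, limma adjusted p = 0.045). The call held without knockout replicate 3, where the fold change was 2.53 (adjusted p = 0.00041), and was lost without any other library (adjusted p 0.098 to 0.13). Dbp overlaps Sphk2 by 741 bases, and Sphk2 had 6.24, 5.27 and 8.31 FPKM in knockouts and 5.12 to 5.52 FPKM in controls, with no high values in knockout replicates 1 and 2.

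**Figure D3:**
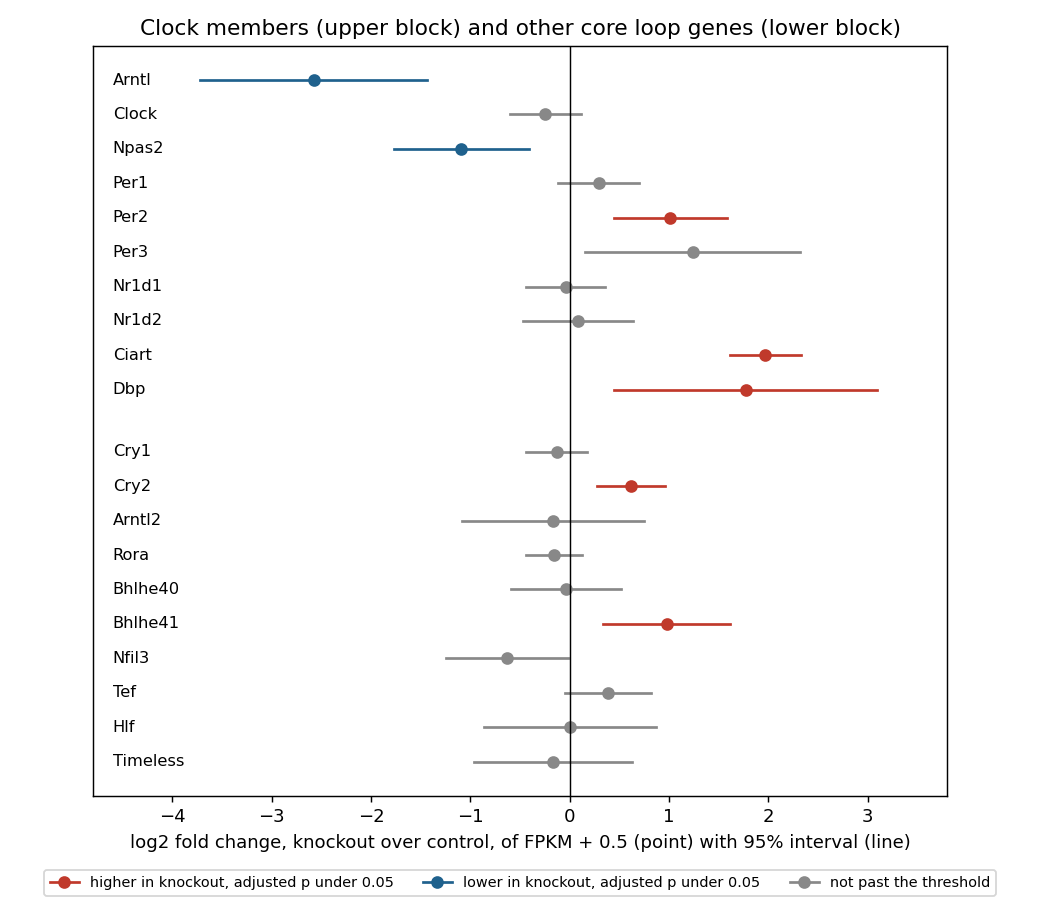
Log2 fold change, knockout over control, of FPKM + 0.5 with its 95% interval for the 10 clock genes (upper block) and 10 other core loop genes (lower block), coloured by the limma call. Arntl and Npas2 lie below 0, Ciart, Dbp and Per2 above it, and Nr1d1 and Nr1d2 at 0 with intervals on both sides.

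The order of levels among the genes, compared per length as FPKM, differed between the groups. In knockouts the means ran from Dbp (22.5 ± 14.4 FPKM, SD, n = 3 as for all means here) through Nr1d2 (19.9 ± 6.51), Clock (16.5 ± 3.34), Ciart (10.3 ± 0.661), Nr1d1 (9.31 ± 1.80), Per1 (8.37 ± 1.55), Per3 (7.10 ± 4.21) and Per2 (3.71 ± 1.28) to Arntl (1.77 ± 1.90) and Npas2 (0.569 ± 0.319). Among these neighbours only Clock and Ciart had ranges that did not overlap. In controls the means ran from Clock (19.5 ± 0.824 FPKM) through Nr1d2 (18.0 ± 0.411), Arntl (10.4 ± 0.840), Nr1d1 (9.54 ± 1.32), Per1 (6.73 ± 1.17), Dbp (4.95 ± 0.694), Per3 (2.33 ± 0.599), Ciart (2.28 ± 0.456) and Npas2 (1.75 ± 0.595) to Per2 (1.53 ± 0.328). In the controls, Arntl could not be separated from Nr1d1, nor any neighbour in the run from Per3 to Per2, by their ranges.

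Activators and targets were then set against each other within each library, a measure in which a scaling factor per library nearly cancels. The mean log2(FPKM + 0.5) of Arntl, Clock and Npas2 minus that of the 7 repressor and output genes was -2.26, -2.20 and -0.44 in knockout replicates 1 to 3, against 0.74, 0.53 and 0.45 in control replicates 1 to 3. The activator mean thus stood below the target mean in every knockout and above it in every control. This did not hold gene by gene. Clock (14.8 FPKM) stood above Ciart (10.9) in knockout replicate 1, and Npas2 (2.42) below Per1 (6.63) in control replicate 1. The 3 controls lay close together, while knockout replicate 3 lay between the controls and the other knockouts. The group means of -1.64 ± 1.03 in knockouts and 0.58 ± 0.15 in controls (SD, n = 3) differed by -2.21. No test was made of this difference, since the genes were chosen with these values known.

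Single pairs of activator and target, taken from the same genes and so no separate evidence, split the libraries in the same way. The FPKM ratio of Arntl to Dbp was 0.0199, 0.0236 and 0.657 in knockout replicates 1 to 3, against 2.09, 1.97 and 2.31 in controls. The ratio of Arntl to Nr1d1 was 0.0630, 0.0691 and 0.517 in knockouts and 1.06, 1.06 and 1.18 in controls. For Npas2 to Per2 it was 0.0664, 0.118 and 0.351 in knockouts and 1.81, 1.15 and 0.675 in controls. In each of these 3 ratios all knockouts lay below all controls, and knockout replicate 3 was the nearest to them. Between 2 genes of the target side, Dbp to Nr1d1, the ratio was 3.17, 2.92 and 0.786 in knockouts and 0.505, 0.538 and 0.513 in controls, so the target genes were not raised by a common factor. For Per3 to Per1 it was 1.15, 1.36 and 0.241 in knockouts and 0.283, 0.265 and 0.536 in controls, with knockout replicate 3 below every control.

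**Figure D4:**
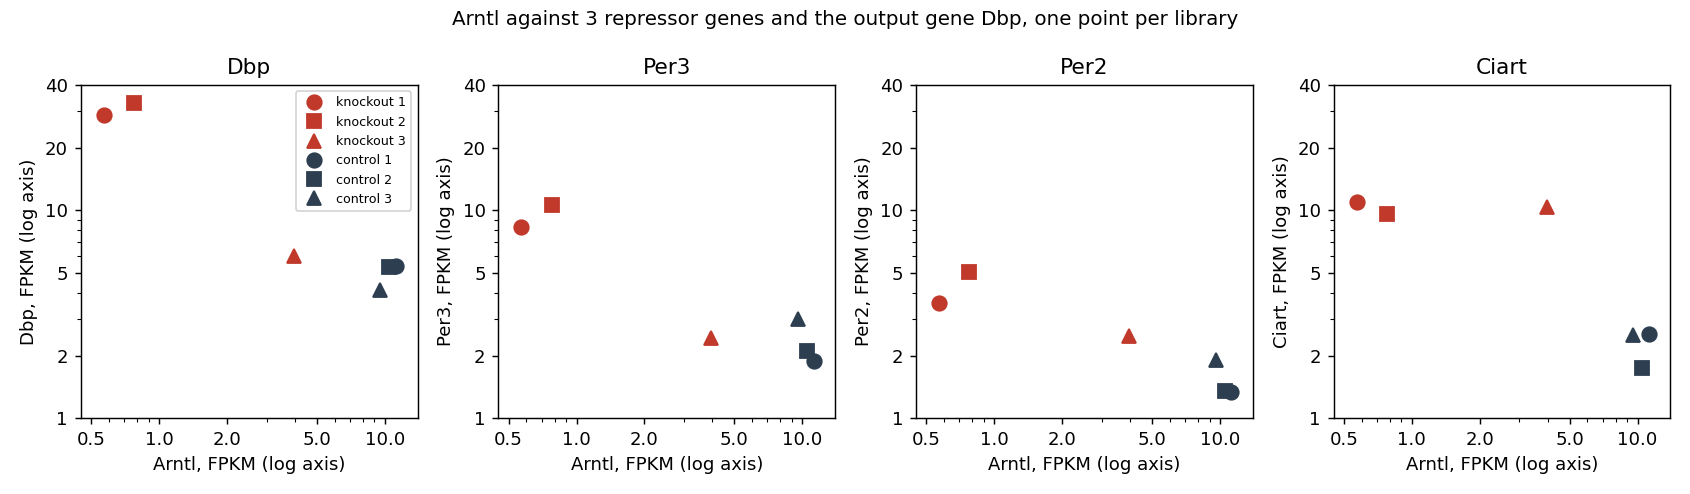
Arntl FPKM against FPKM of Dbp, Per3, Per2 and Ciart, one point per library, on log axes. Knockout replicates 1 and 2 sit at low Arntl and high Dbp, Per3 and Per2, the controls sit at the opposite end, and knockout replicate 3 lies between them for Dbp and Per2, in the control range for Per3 and with the other knockouts for Ciart.

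Knockout replicate 3 thus differed from the other knockouts in some clock genes and not in others. Relative to the control mean on the log2 scale, knockout replicates 1 to 3 deviated by 2.43, 2.62 and 0.27 for Dbp, by 1.65, 1.99 and 0.07 for Per3, and by -3.35, -3.10 and -1.29 for Arntl. For Ciart the deviations were 2.05, 1.88 and 1.98, with no gap for replicate 3. Replicate 3 was the knockout nearest to the control mean for 6 of the 10 clock genes, and for 30.9% of all tested loci and 27.7% of called loci, so it was not nearer to the controls across the transcriptome.

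The spread among knockouts was largest for Dbp, Arntl and Per3, smaller for Nr1d2, Npas2 and Per2, and ordinary or low for the others. The SD of log2(FPKM + 0.5) over the knockouts was 1.31 for Dbp, 1.12 for Arntl and 1.02 for Per3, and 0.952%, 1.38% and 1.67% of all tested loci had an SD at least as large. Over the controls the SD was 0.19 for Dbp, 0.11 for Arntl and 0.29 for Per3, values that 30.8%, 59.9% and 13.7% of loci reached. Nr1d2, Npas2 and Per2 had SDs over knockouts of 0.51, 0.45 and 0.44, which 10.4%, 13.5% and 14.2% of loci reached. Clock, Nr1d1 and Per1 had SDs over knockouts of 0.27, 0.26 and 0.24, which 37.6%, 39.0% and 43.4% of loci reached. Ciart had an SD of 0.09 over knockouts, which 87.6% of loci reached. Without knockout replicate 3, limma called 7 of the 10 genes, with Ciart, Dbp, Per2 and Per3 higher and Arntl, Npas2 and Clock lower, where 33.7% of all loci were called. Knockout replicate 2 had the highest atrial and red blood cell sums. Without it, Ciart and Per2 were higher and Arntl and Npas2 lower, where 37.3% of all loci were called, 17.7% higher and 19.6% lower.

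Other measures moved with part of this pattern. The 7 fibroblast markers, of which 4 rose, summed to 669, 594 and 378 FPKM in knockout replicates 1 to 3, against 407, 349 and 333 FPKM in controls. The sum of knockout replicate 3 lay in the control range, but much of it was Dcn (181 FPKM), which did not rise. The 4 markers that rose lay above every control in that library as well. There Postn had 44.6 FPKM (8.76 to 10.6 in controls), Col1a1 14.3 (4.42 to 6.90), Col1a2 38.6 (18.3 to 26.5) and Col3a1 75.2 (55.7 to 67.1). No fibroblast marker was at 0 in any library. The 7 macrophage markers, of which 4 also rose, summed to 211, 324 and 291 FPKM in knockouts and 97.0 to 108 FPKM in controls. The 6 endothelial markers summed to 308, 311 and 229 FPKM in knockouts and 267 to 302 FPKM in controls. The 4 smooth muscle markers summed to 86.8 to 91.9 FPKM in knockouts and 73.0 to 108 FPKM in controls. Of nervous tissue markers (4 genes, summed at most 1.86 FPKM), Snap25 was listed at 0 in 4 libraries and Th in 5. The part of cell makeup in the clock values was not tested.

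**Figure D5:**
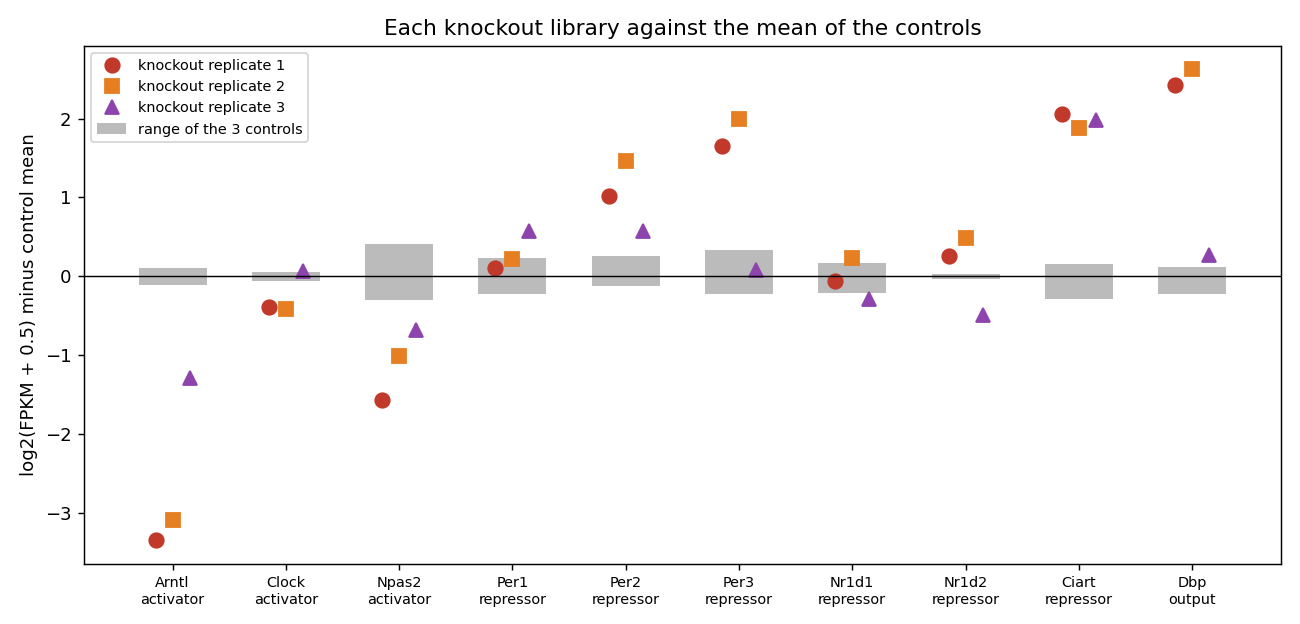
Log2(FPKM + 0.5) of each knockout library minus the control mean for the 10 clock genes, with grey bars for the range of the 3 controls. Knockout replicate 3 falls inside or near the grey range for Per3 and Dbp (deviations 0.07 and 0.27) but with the other knockouts for Ciart (1.98).

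The other genes of the core loop were read from a list. Of 12 listed genes 11 were tested, 2 rose (the repressors Cry2 and Bhlhe41), 0 fell and 9 did not pass (18.2% called, beside 35.7% of all loci tested), with a median log2 fold change of -0.13. Cry2, the partner of the PER repressors, had 7.79, 9.51 and 9.27 FPKM in knockout replicates 1 to 3, against 6.58, 4.89 and 5.35 FPKM in controls (log2 fold change 0.62, SE 0.15, limma adjusted p = 0.0154, lost without control replicate 2, 0.0645, or control replicate 3, 0.0569). Its sister Cry1 had 3.01 ± 0.322 FPKM in knockouts and 3.34 ± 0.268 FPKM in controls (limma adjusted p = 0.47). Bhlhe41, an E-box repressor also called DEC2, had 9.38, 6.01 and 4.36 FPKM in knockouts, against 2.59, 2.54 and 3.88 FPKM in controls (log2 fold change 0.98, limma adjusted p = 0.029, lost without knockout replicate 1, 0.062, control replicate 1, 0.090, or control replicate 2, 0.092). Its relative Bhlhe40 had 11.1 ± 3.19 FPKM in knockouts and 11.2 ± 2.03 FPKM in controls.

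Of the genes that did not pass, 2 were chosen after their values were seen because they split the knockouts as Dbp and Arntl do. Nfil3, which represses through D-boxes, had 4.10, 3.96 and 8.17 FPKM in knockout replicates 1 to 3, against 9.62, 7.74 and 7.43 FPKM in controls (log2 fold change -0.63, limma adjusted p = 0.099, and -0.94, adjusted p = 0.0056, without knockout replicate 3). Tef, a relative of Dbp, had 37.3, 42.1 and 25.6 FPKM in knockouts, against 25.5, 26.4 and 26.3 FPKM in controls (log2 fold change 0.39, limma adjusted p = 0.14, and 0.59, adjusted p = 0.010, without knockout replicate 3). In both genes knockout replicate 3 was the knockout nearest to the control mean and lay within the control range. The list as a whole was mixed. Of its 12 genes, knockout replicate 3 was the nearest for 6, replicate 1 for 5 and replicate 2 for 1. Hlf, another relative of Dbp named after its values were seen, did not share the split. Relative to the control mean on the log2 scale, its knockout replicates 1 to 3 deviated by -0.02, 0.84 and -0.81. For Bhlhe40 the deviations were 0.22, 0.23 and -0.54.

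A further list holds genes for enzymes and corepressors that act on or with clock proteins. Of 17 listed genes 16 were tested, of which 3 fell, 1 rose and 12 did not pass (25.0% called, beside 35.7% of all loci, median log2 fold change -0.145). Fbxw7, a ubiquitin ligase subunit that marks NR1D1 for destruction, had 9.69 ± 2.23 FPKM in knockouts and 25.6 ± 1.31 FPKM in controls (log2 fold change -1.38, SE 0.17, limma adjusted p = 0.00135). Ncor1, the corepressor recruited by the REV-ERB proteins, had 43.8 ± 0.651 FPKM in knockouts and 70.4 ± 3.36 FPKM in controls (log2 fold change -0.68, limma adjusted p = 0.0039). Sirt1, a deacetylase that acts on clock proteins, had 3.84 ± 0.360 FPKM in knockouts and 6.25 ± 0.487 FPKM in controls (log2 fold change -0.64, limma adjusted p = 0.0074). These 3 calls held with each library left out in turn. Csnk1d, a kinase that phosphorylates PER proteins, had 17.5 ± 1.91 FPKM in knockouts and 13.04 ± 0.345 FPKM in controls (log2 fold change 0.41, limma adjusted p = 0.035). That call held only without knockout replicate 1 (adjusted p = 0.026) and reached 0.056 to 0.12 without any other library.

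Genes that the clock drives in heart or in many tissues moved in both directions. Of 18 listed genes 17 were tested, of which 7 fell, 3 rose and 7 did not pass (58.8% called, beside 35.7% of all loci, median log2 fold change -0.12). Tspan4, a tetraspanin, had 27.9 ± 3.76 FPKM in knockouts and 8.13 ± 1.91 FPKM in controls (log2 fold change 1.73, SE 0.18, limma adjusted p = 0.000815). Por, the electron donor of cytochrome P450 enzymes, had 28.2 ± 6.86 FPKM in knockouts and 11.6 ± 2.66 FPKM in controls (log2 fold change 1.25, limma adjusted p = 0.0057). Kcnip2, a subunit of the channels for the transient outward potassium current, had 20.8 ± 10.9 FPKM in knockouts and 69.3 ± 3.98 FPKM in controls (log2 fold change -1.87, SE 0.38, limma adjusted p = 0.0090). Pik3r1, a regulatory subunit of PI3 kinase, had 13.2 ± 1.18 FPKM in knockouts and 36.6 ± 4.27 FPKM in controls (log2 fold change -1.44, limma adjusted p = 0.000498). Usp2, a ubiquitin protease whose rhythm is found in many organs, had 18.9 ± 1.88 FPKM in knockouts and 20.7 ± 2.48 FPKM in controls (limma adjusted p = 0.505), and was named after its values were seen.

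Glucocorticoids reset peripheral clocks, so a list of 9 genes that respond to them was read as well, 2 of which (Tsc22d3 and Klf9) are also in the list of clock-driven genes. All 9 were tested, of which 4 fell and 5 did not pass (44.4% called, beside 35.7% of all loci, of which 19.5% were lower), with a median log2 fold change of -0.58. Tsc22d3, a mediator of glucocorticoid action also called GILZ, had 30.5 ± 4.84 FPKM in knockouts and 51.1 ± 4.91 FPKM in controls (log2 fold change -0.74, limma adjusted p = 0.00855). Zbtb16, a transcription factor, had 6.94 ± 2.68 FPKM in knockouts and 14.01 ± 1.34 FPKM in controls (limma adjusted p = 0.0154). Errfi1, an inhibitor of EGF receptor signalling, had 7.15 ± 2.75 FPKM in knockouts and 14.5 ± 1.59 FPKM in controls (limma adjusted p = 0.015). Klf9, a Krüppel-like transcription factor, had 18.8 ± 2.44 FPKM in knockouts and 28.3 ± 2.54 FPKM in controls (limma adjusted p = 0.016). The call of Errfi1 was lost without control replicate 1 or 2 (adjusted p = 0.052 and 0.056), that of Klf9 without the same libraries (0.061 and 0.071) or scaled to the same summed FPKM (-0.36, adjusted p = 0.080), and that of Zbtb16 without control replicate 2 (0.057). Fkbp5, which glucocorticoids induce, had 3.50, 4.88 and 13.7 FPKM in knockout replicates 1 to 3, against 4.37, 6.83 and 5.52 FPKM in controls. It did not pass (log2 fold change 0.17, limma adjusted p = 0.71), and was named after its values were seen because knockout replicate 3 was the highest library, as for Per1. In that library Sgk1 and Cebpd were also highest, Nfkbia and Ddit4 lay within the control range, and the 4 genes that fell lay below every control. Over the 4 lists together 51 of 54 genes were tested, of which 6 rose and 12 fell, a share of 35.3% beside the 35.7% of all loci tested.

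The loci whose profile over the 6 libraries was most like that of Arntl and Dbp were found by the root-mean-square difference of log2 values centred on the control mean, among 9777 other loci with 1 gene name and a mean of at least 2 FPKM. Nearest to Arntl were Gm12167 (difference 0.42), Tmem82 (0.44) and 2310039L15Rik (0.46). Gm12167 had 0.594, 0.315 and 2.18 FPKM in knockout replicates 1 to 3, against 9.11, 10.7 and 11.3 FPKM in controls, and Tmem82 had 1.55, 0.701 and 2.58 FPKM in knockouts, against 11.8, 11.0 and 9.85 FPKM in controls. Nearest to Dbp were the linker histone gene Hist1h1d (0.21), the immediate early gene Fos (0.32) and the histone gene Hist1h2bh (0.33). Hist1h1d had 19.2, 32.1 and 4.73 FPKM in knockout replicates 1 to 3, against 3.87, 3.87 and 4.14 FPKM in controls, and did not pass (limma adjusted p = 0.0523). Fos had 9.40, 19.6 and 3.41 FPKM in knockouts, against 1.94, 1.91 and 1.49 FPKM in controls (limma adjusted p = 0.0211), a call lost without knockout replicate 1 or any control (0.0563 to 0.0697). The 3 loci nearest to Dbp belong to no clock list used here. They were picked for this likeness, so their sharing its split of knockout replicate 3 follows from the choice.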

How the data were processed

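From heart, 3 knockout and 3 control total RNA libraries were analysed, grouped by the source names in the labels, and the other 6 libraries of the series (PARE, from mitochondrial RNA) were not used here. Libraries were made with the TruSeq protocol, random hexamer priming and Ribo-Zero, per the labels' protocols. Whether every sample came from its own animal is not in the labels, and p-values then reflect only how far these samples spread, which may be technical. The deposited values are FPKM per locus, 1 library per file, per the file headers. Tools named in the submitters' processing notes are Cufflinks 2.2.1 and Cuffdiff, StringTie 1.1.0, HISAT2 2.0.1 and HISAT 0.1.6, with builds GRCm38 and mm10. Their roles, the annotation, whether strand was used and any scaling between libraries: not given in the sources used here. Depth was read only as a ratio between libraries, so no counting interval is given.

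FPKM are not counts, so log2(FPKM + 0.5) was tested with limma 3.58.1 in R 4.3.3 (two-sided, moderated with a mean-variance trend, Benjamini-Hochberg adjustment over the 12181 loci that reach 1 FPKM in 3 or more libraries, threshold 0.05), checked on simulated data. The clock genes and all gene lists were chosen with earlier results of these data known. Named genes are the 10 clock genes, up to 4 called genes per list with the largest change, Prorp, the 3 loci most like Arntl and Dbp, and those marked as chosen later. A listed gene, counted with its list, is not reported here. Promoter sequences are RefSeq's. Alternatives were pseudocounts, filters, scalings, variance models, a replicate block and leaving out each library.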

Additional observations from a re-analysis of the deposited data

How the results depend on the processing

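The alternatives were pseudocounts of 0.1 and 1, no filter and a filter at 2 FPKM, 3 scalings, no variance trend, array weights, a replicate block and leaving out each library. Over 33 named genes, 464 of 527 values kept their direction and side of the threshold, 44 lost a call, 14 gained a call and 5 changed sign. The sign changes were of Nr1d1 (0.18 scaled to the same summed FPKM, and -0.18 to 0.085 with a library left out, above 0 without knockout replicate 3 or control replicate 1, against -0.04) and Nr1d2 (-0.11 to 0.37 with a library left out, below 0 without knockout replicate 1 or 2, against 0.09). Arntl and Ciart passed in every alternative. Dbp also lost its call with no filter (adjusted p = 0.10), after quantile normalization (0.051) and without a variance trend (0.050, above the threshold before rounding). Among the other named genes, calls were lost with no filter (Bhlhe41 0.068, Fos 0.055, Hist1h2bh 0.066), with the replicate block (Bhlhe41 0.058, Csnk1d 0.084) and with summed-FPKM scaling (Klf9 0.080). Clock genes called higher numbered 1 to 4 and lower 1 to 3 with each library left out. The lower count was 1 with no filter (Npas2, adjusted p = 0.055), 1 with the filter at 2 FPKM, which removes Npas2, and 1 with the replicate block (Npas2, 0.062). Scaling to the same summed FPKM gave 3229 loci higher and 1402 lower and 10 other clock-pathway genes higher, with a median over loci of 0.19, against -0.02. Leaving out a library gave 1212 to 2153 loci higher, 1409 to 2389 lower, 2 to 7 other clock-pathway genes higher and 8 to 17 lower. The activator-minus-target difference ran from -2.81 (without knockout replicate 3) to -1.90 (without knockout replicate 1) with a library left out, and from -2.58 to -1.93 with the other pseudocounts and scalings. Same-numbered libraries did not deviate together (correlations of deviations -0.08, -0.06 and -0.01), so the values gave no sign of a pairing by replicate number. Such correlations cannot exclude a pairing in the design, which the labels do not state. With the block, 1536 loci were higher and 1807 lower. With 3 libraries a group and depth known only as a ratio, values under 1 FPKM such as Npas2 in knockouts are uncertain. Where a call changed with a scaling or variance model, the cause was not tested.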
